A study of Mus musculus with 6 samples.

Results

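Integrin and laminin chain genes were examined in RNA sequencing of 6 mouse cancer cell lines. The members were all genes in the files whose symbols name an integrin alpha or beta chain or a laminin alpha, beta or gamma chain, and they were chosen by name and not by their values. The 37 symbols covered 38 gene identifiers of the 55401 in the files, because Itgam stood there under 2 identifiers. They comprised 18 integrin alpha, 8 integrin beta, 5 laminin alpha, 3 laminin beta and 3 laminin gamma chains. Of the 38, 30 had enough reads to be tested, and none lay on a sex chromosome (0 on X or Y). Each library came from cells grown in culture from a primary tumour that had been dissociated with collagenase, dispase and trypsin. The lines labelled Rag1KO (replicates 1, 3 and 7) came from C57BL/6 mice labelled with that genotype, a knockout known to leave mice without mature T and B cells, and the lines labelled WT (replicates 2, 4 and 6) from C57BL/6 mice labelled wild type. The labels do not give the tumour type, the age or sex of the animals, or whether every line had a separate animal as its source. The p-values measure only the spread between these lines, which may in part be technical. The comparison asks what sets tumour cells from immunodeficient mice apart from those of immunocompetent mice.

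Integrins are receptors made of an alpha and a beta chain that hold cells to the extracellular matrix or to other cells. The beta1 chain pairs with the widest range of alpha chains, and the pair decides the ligand: some integrins bind collagens, some laminins, some the RGD sequence of fibronectin and vitronectin, and those with the beta2 or beta7 chain serve leukocytes. Laminins are cross-shaped trimers of an alpha, a beta and a gamma chain that form the sheet of the basement membrane, and they are named by their chains, so that laminin-511 holds alpha5, beta1 and gamma1. The alpha chain carries the main site for integrins and is the chain that distinguishes laminins of muscle (alpha2), of vessels and mesenchyme (alpha4), and of epithelial and endothelial basement membranes (alpha5).

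Libraries held 55409583 to 62998051 reads assigned to genes. Values are reads per gene after division by the library's size factor, called normalized counts, and are listed for replicates 1, 3 and 7 of the lines labelled Rag1KO and then replicates 2, 4 and 6 of those labelled WT. Gene coordinates are those of the mm10 assembly. Levels of different genes are compared per kilobase of annotated exon. Rag1 had 41, 109 and 183 reads in the lines labelled Rag1KO and 0 in each of those labelled WT. Reads per gene do not show whether a transcript was intact, so these values do not decide the genotype of any line. Every direction below is therefore one between labels. WT replicate 6 stood apart from the other 5 lines. It was the highest or the lowest library for 57.6% of the 16137 genes tested. Xist had 1.94 to 15.3 normalized counts in the lines labelled Rag1KO, against 59775, 32733 and 5.28 in those labelled WT, and Y-linked RNA was found in all lines labelled Rag1KO and in WT replicate 6. In that line Kdm5d, Uty and Ddx3y had 1994, 1196 and 4345 normalized counts, but Y-linked Eif2s3y had 0 reads. Eif2s3y had 2109, 2944 and 1438 normalized counts in the lines labelled Rag1KO. Leaving out WT replicate 6 therefore sets lines with Y-linked RNA against lines with Xist. The summed level of 10 fibroblast markers was 1128327 to 2049563 normalized counts in the lines labelled Rag1KO, against 304139 to 1820819 in those labelled WT, the lowest again being replicate 6. Thy1 had 0.88 and Col1a1 206 normalized counts there, while Col3a1 had 126015 and Pdgfra 16592, within the range of the other lines, and Fap, at 686, was highest there. The 12 epithelial markers summed to 1826 to 6414 normalized counts in the lines labelled Rag1KO, against 11.4 to 5055 in those labelled WT. Outside WT replicate 6 most of that was Krt19, with 6287, 1744 and 1789 normalized counts in the lines labelled Rag1KO, against 4799, 2600.3 and 0.88 in those labelled WT, and Epcam had 0 reads in all 6. Fewer cells of a type and less RNA per cell cannot be told apart in such libraries.

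No integrin or laminin chain passed limma's test between the groups, and the lines differed widely in which chains they made. The limma test on log2(value + 1), adjusted over all 16137 genes at a threshold of 0.05, called 0 of the 30 members tested. It called 0.0062% of all genes, the single Y-linked gene Eif2s3y. At an unadjusted p under 0.05 limma gave 3 of the 30 (4.67% of all genes). The quasi-likelihood test of edgeR called 0 members and gave 2 at an unadjusted p under 0.05 (4.44% of all genes). DESeq2 called 1 member, Itgb7, where it called 0.403% of all genes, and gave 4 at an unadjusted p under 0.05 (6.54%). It gave no adjusted p for Itga2 or Itgad, nor for Lama3 without WT replicate 6. Without WT replicate 6, limma called 0 members (0.031% of all genes) and DESeq2 and edgeR 0 each (0.806% and 0.0%), while the counts at an unadjusted p under 0.05 were 2 in limma (4.11% of all genes), 5 in DESeq2 (7.27%) and 4 in edgeR (4.05%). The log2 fold change (Rag1KO minus WT throughout) was positive for 18 members and negative for 12, with a median of 0.44 against −0.0003 over all genes tested, and the median was 0.07 without WT replicate 6, against −0.02. The groups did not overlap for 4 members, 13.3% of those tested and close to the 12.1% of all genes. The lines labelled Rag1KO lay below those labelled WT for Itgb7, Itgb2 and Itga6 (6.49% of all genes) and above them for Lamb2 (5.6%). Without WT replicate 6 there were 5 such members, Itga2 being added, or 16.7% against 20.6% of all genes. The median SE of a member's log2 fold change was 0.84, against 0.40 for all genes, so that differences of a few fold in a single member could not be resolved with 3 lines a group.

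**Figure D1:**
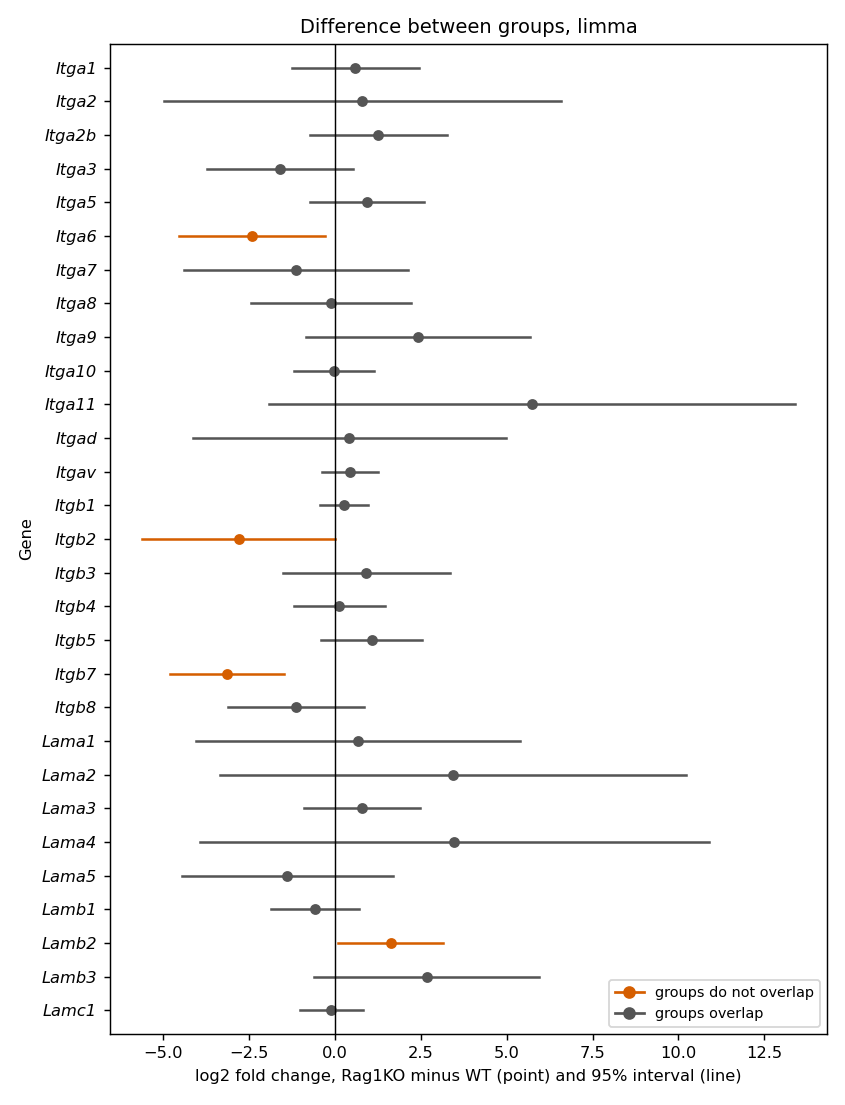
Points give the log2 fold change (Rag1KO minus WT) of 29 of the 30 members tested and lines its 95% interval from limma, with the 4 members whose groups did not overlap in orange. Itgb7, Itgb2 and Itga6 lie left of 0 and Lamb2 right of 0, while the intervals of Itga11, Lama4 and Lama2 are the widest.

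Levels varied widely among the 6 lines, a spread that includes any difference between the labels. The SD of log2(value + 1) over the 6 lines had a median of 1.33 for the 30 members, against 0.49 for all genes tested, and without WT replicate 6 the medians were 0.98 and 0.41. In 23 of the 30 the highest library had at least 4 times the value of the lowest, against 31.9% of all genes. WT replicate 6 was the extreme library for 21 of the 30, being the highest for 9 and the lowest for 12. Rag1KO replicate 3 was the highest library for 10 members. Those counts describe these lines, since levels of members made by the same cells are not independent of each other.

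**Figure D2:**
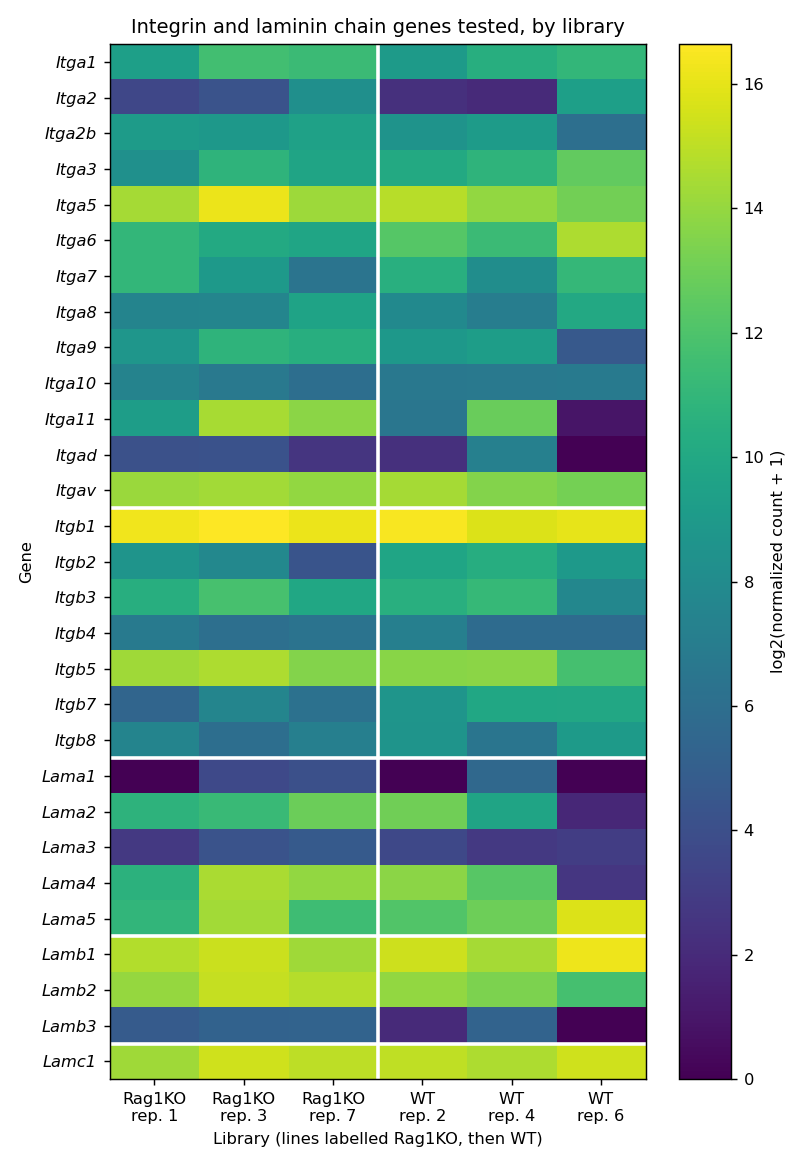
Colour shows log2(normalized count + 1) for 29 of the 30 members tested (rows, grouped by chain type) in each library (columns, Rag1KO lines left of the white line and WT lines right of it). Itgb1 is bright in all 6 columns, and the column of WT replicate 6 is dark for Itga11, Lama2 and Lama4 and bright for Itga6 and Lama5.

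Itgb1, which encodes the shared beta1 chain, was the most abundant member per kilobase in every line and among the most even. It had 79316, 102415 and 73817 normalized counts in the lines labelled Rag1KO, against 91009.7, 54915 and 66844 in those labelled WT, and the groups overlapped (log2 fold change 0.28, SE 0.28, 95% interval −0.41 to 0.98, limma adjusted p 0.854). Of the summed per-kilobase level of the beta chains it took 76.2%, 76.7% and 83.3% in the lines labelled Rag1KO, against 83.6%, 72.5% and 91.1% in those labelled WT. Itgb5, whose product pairs with alphav to bind vitronectin, came next with 20033, 24489.7 and 12103 normalized counts in the lines labelled Rag1KO, against 12905, 13954 and 3481 in those labelled WT. Its groups overlapped, with WT replicate 6 below every other line (log2 fold change 1.08, SE 0.60; 0.43 without that line). Itgb3, the other well-known partner of alphav, had 1407, 3504 and 947 normalized counts in the lines labelled Rag1KO, against 1416, 2277 and 210.3 in those labelled WT. Here too WT replicate 6 was lowest, and the log2 fold change was 0.93 with all lines and −0.10 without it, so that its direction rested on that line.

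Both beta chains of leukocyte integrins were present at low levels and lay lower in every line labelled Rag1KO than in any labelled WT. Itgb7 (ENSMUSG00000001281.10, chromosome 15, 102215995 to 102231944, minus strand), whose product pairs with alpha4 or alphaE on lymphocytes, had 41.2, 190.0 and 71.7 normalized counts in the lines labelled Rag1KO, against 415, 977 and 989 in those labelled WT. The highest line labelled Rag1KO stayed below the lowest labelled WT, with means of 101 ± 78.6 normalized counts in the lines labelled Rag1KO and 794 ± 328 in those labelled WT (SD, n = 3 each). On the log2(value + 1) scale that is 8.82-fold lower in the lines labelled Rag1KO (log2 fold change −3.14, SE 0.68, 95% interval −4.80 to −1.48, limma adjusted p 0.85), and the direction was the same under every alternative tried. DESeq2 gave Itgb7 an adjusted p of 0.0106 with all 6 lines and 0.0647 without WT replicate 6, and edgeR 0.891. Itgb2, the beta chain of LFA-1 and Mac-1, had 392, 219 and 19.4 normalized counts in the lines labelled Rag1KO, against 876, 1294 and 512 in those labelled WT. Its groups did not overlap either, with Rag1KO replicate 7 far below the rest (log2 fold change −2.79, SE 1.14, 95% interval −5.59 to 0.01, limma adjusted p 0.85).

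The alpha partners of these chains were nearly absent. Itgam, the alpha chain of Mac-1, had at most 1 read in any library under one identifier and 0 under the other. Itgal, the alpha chain of LFA-1, had 10.5, 34.8 and 2.91 normalized counts in the lines labelled Rag1KO, against 5.04, 2.90 and 0 in those labelled WT, and Itgax had 1.92, 0 and 2.91 normalized counts in the lines labelled Rag1KO, against 7.05, 8.69 and 3.52 in those labelled WT, groups that did not overlap but stood near 0. Itgae, the partner of beta7 on intraepithelial T cells, had 0, 4.63 and 3.88 normalized counts in the lines labelled Rag1KO, against 6.04, 9.66 and 0 in those labelled WT. None of these genes was tested, and since a count of 0 leaves room for up to 3 reads, a value up to 2.64 to 3.48 normalized counts could not be told from 0 (counting error only). Itga4 was well above that limit in a single line of each group, with 1.92, 0 and 151 normalized counts in the lines labelled Rag1KO, against 157, 0 and 0 in those labelled WT, and was not tested. Its exons overlap those of Cerkl on the opposite strand, and whether counting used the strand is not given in the sources used here, but Cerkl had 0 reads in both lines where Itga4 was high. Itgad, a further partner of beta2, had 16.3, 17.4 and 4.84 normalized counts in the lines labelled Rag1KO, against 4.03, 151 and 0 in those labelled WT, where WT replicate 4 stood alone (log2 fold change 0.43, SE 1.86; −1.17 without WT replicate 6). Itgal, Itgam, Itgax and Itgad are paralogues on chromosome 7, and reads that match more than 1 of them could have been assigned to either.

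Several leukocyte and macrophage markers were at or near 0, while others were not. Ptprc, which encodes the pan-leukocyte antigen CD45, had at most 3.83 normalized counts in any library, Adgre1 at most 1.16 and Spi1 at most 1.94, and Tyrobp had 0 reads in all 6. The 12 leukocyte and macrophage markers summed to 462 to 2113 normalized counts in the lines labelled Rag1KO, against 359.9 to 914 in those labelled WT, most of it from Lyz2, Cd14, Csf1r and Cd68. Lyz2 alone had 1493, 579 and 71.7 normalized counts in the lines labelled Rag1KO, against 113, 349 and 0 in those labelled WT. Laptm5 had 0.958, 8.11 and 6.78 normalized counts in the lines labelled Rag1KO, against 0, 2.90 and 91.5 in those labelled WT. Itgb7 was at 989 in WT replicate 6, where Laptm5 was highest, and at 977 in WT replicate 4, where Laptm5 was at 2.90. Csf1r had 141, 429 and 164 normalized counts in the lines labelled Rag1KO, against 72.5, 268 and 4.40 in those labelled WT, and was lowest in WT replicate 6. The list of leukocyte and macrophage markers includes Itgam, and the part of such cells in the levels of Itgb7 and Itgb2 was not tested. Of the 10 lymphocyte markers, 9 stayed under 10 normalized counts in every line, 4 of them (Cd3e, Cd3g, Cd2 and Ms4a1) at 0, and Trac had 56.5, 102 and 42.6 normalized counts in the lines labelled Rag1KO, against 30.2, 87.9 and 2.64 in those labelled WT.

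Among alpha chains, those that bind the RGD sequence led in 5 of the 6 lines. Of the summed per-kilobase level of alpha chains, Itga5, Itgav, Itga8 and Itga2b together took 88.5%, 75.4% and 62.6% in the lines labelled Rag1KO, against 88.5%, 66.4% and 38.7% in those labelled WT. Itga5 (ENSMUSG00000000555.8, chromosome 15, 103344286 to 103366763, minus strand), the fibronectin receptor chain, had 21409, 71917 and 18732 normalized counts in the lines labelled Rag1KO, against 29885, 15885 and 8588 in those labelled WT. Rag1KO replicate 3 was far above the other lines and WT replicate 6 below them, and the groups overlapped (log2 fold change 0.94, SE 0.68, 95% interval −0.72 to 2.60, limma adjusted p 0.85). Itgav, shared by the vitronectin receptors, had 18264, 20292 and 15928 normalized counts in the lines labelled Rag1KO, against 21177, 11873 and 9145 in those labelled WT, a narrower range with overlapping groups (log2 fold change 0.45, SE 0.34).

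The less abundant RGD-binding chains varied more. Itga8, a nephronectin receptor chain, had 185, 185 and 791 normalized counts in the lines labelled Rag1KO, against 239.7, 133 and 1049.8 in those labelled WT, the highest line of each group standing well above the others (log2 fold change −0.10, SE 0.95; 0.75 without WT replicate 6). Itga2b, known as the platelet fibrinogen receptor chain, had 565, 477 and 719.8 normalized counts in the lines labelled Rag1KO, against 371, 555 and 66.0 in those labelled WT. It was steady in 5 lines and low in WT replicate 6 (log2 fold change 1.27, SE 0.81; 0.35 without that line). The 8 platelet and megakaryocyte markers, Itga2b included, summed to 546 to 738 normalized counts in the lines labelled Rag1KO, against 66.0 to 625 in those labelled WT. Among them Ppbp had 16.3, 56.8 and 11.6 normalized counts in the lines labelled Rag1KO, against 26.2, 50.2 and 0 in those labelled WT, Treml1 at most 25.9 in any line and Pf4 at most 11.6, all 3 being 0 in WT replicate 6, and Gp9 had 0 reads in all 6. Their part in the level of Itga2b was not tested. Of the beta chains that pair with alphav in epithelia and elsewhere, Itgb8 had 179, 64.9 and 145 normalized counts in the lines labelled Rag1KO, against 392, 85.9 and 529 in those labelled WT (log2 fold change −1.13, SE 0.81). Itgb6 had 18.2, 8.11 and 3.88 normalized counts in the lines labelled Rag1KO, against 27.2, 1.93 and 0.88 in those labelled WT and was not tested.

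The collagen-binding class was mostly Itga11 in 4 of the 6 lines, and the level of that gene differed widely between lines of the same label. Itga11 (ENSMUSG00000032243.8, chromosome 9, 62677826 to 62783982, plus strand), the alpha11 chain of a collagen receptor of mesenchymal cells, had 620.0, 22972 and 13663 normalized counts in the lines labelled Rag1KO, against 92.7, 7185 and 0.88 in those labelled WT. Rag1KO replicates 3 and 7 and WT replicate 4 were high, Rag1KO replicate 1 and WT replicate 2 were low, and WT replicate 6 had a single read. Each group thus held high and low lines, and the log2 fold change of 5.74 carried an SE of 3.12 and was 2.82 without WT replicate 6. With all lines edgeR and DESeq2 each gave 2.37. The summed level of pericyte and smooth muscle markers was lowest in WT replicate 6, although Cspg4 was highest there, with 632, 4.63 and 1018 normalized counts in the lines labelled Rag1KO, against 18.1, 140.0 and 6476 in those labelled WT. Rgs5, at 117 in WT replicate 6, was within the range of the other lines, 45.0 to 151. All 10 markers were detected somewhere, though Kcnj8 and Abcc9 stayed under 10 normalized counts throughout. The 10 summed to 70810.1 to 474251 normalized counts in the lines labelled Rag1KO, against 6873 to 150583 in those labelled WT. The sum was higher in WT replicate 2 (150583) than in WT replicate 4 (122421), the reverse of Itga11. The part of these markers in the levels of Itga11, and of Lama2 and Lama4 described below, was not tested. Of the alpha-chain level per kilobase, the whole class took 2.76%, 21.2% and 32.4% in the lines labelled Rag1KO, against 0.729%, 22.3% and 3.18% in those labelled WT.

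The other collagen receptor chains were less abundant. Itga1 had 673, 3079.8 and 2557 normalized counts in the lines labelled Rag1KO, against 529.7, 1379.8 and 2049 in those labelled WT, with overlapping groups (log2 fold change 0.61, SE 0.75). Itga2, prominent on epithelial cells and platelets, had 10.5, 18.5 and 313 normalized counts in the lines labelled Rag1KO, against 4.03, 2.90 and 669 in those labelled WT. It was carried by Rag1KO replicate 7 and WT replicate 6, and its log2 fold change of 0.81 (SE 2.35) became 3.22 without WT replicate 6. Itga10, a chain best known from cartilage, was between 63.0 and 174 normalized counts in the lines labelled Rag1KO and between 103 and 112 in those labelled WT. It shares 33.5% of its exon bases with the predicted gene Gm42957 on the same strand, so its reads are uncertain.

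Laminin-binding alpha chains took a small part of the total in 5 lines and most of it in WT replicate 6. Of the alpha-chain level per kilobase, Itga3, Itga6 and Itga7 together took 7.82%, 2.28% and 2.88% in the lines labelled Rag1KO, against 9.93%, 9.50% and 58.1% in those labelled WT. Itga6 (ENSMUSG00000027111.16, chromosome 2, 71745616 to 71858416, plus strand), the alpha6 chain of laminin receptors with beta1 or beta4, had 2109, 1107 and 888 normalized counts in the lines labelled Rag1KO, against 4809.8, 2556 and 24695 in those labelled WT. All 3 lines labelled Rag1KO lay below all 3 labelled WT, by a narrow margin between Rag1KO replicate 1 and WT replicate 4 (log2 fold change −2.40, SE 0.87, 95% interval −4.52 to −0.28, limma adjusted p 0.85). The log2 fold change was −1.46 without WT replicate 6, with the groups still apart, and DESeq2 gave an adjusted p of 0.128.

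Itga3, whose product binds laminins of the alpha3 and alpha5 kind, had 324, 1808 and 833 normalized counts in the lines labelled Rag1KO, against 1129, 1810.4 and 6456 in those labelled WT. WT replicate 6 was again highest, while Rag1KO replicate 3 and WT replicate 4 were nearly equal (log2 fold change −1.58, SE 0.86; −0.86 without WT replicate 6). Itga7, the main laminin receptor chain of muscle, had 2060.4, 503 and 82.3 normalized counts in the lines labelled Rag1KO, against 1464, 287 and 2124 in those labelled WT. High and low lines occurred in both groups (log2 fold change −1.12, SE 1.33). Itgb4, the hemidesmosome chain that pairs with alpha6, stayed at 67.2 to 110.2 normalized counts in the lines labelled Rag1KO and 55.04 to 146 in those labelled WT, far under Itga6 per kilobase.

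Itga9 and Itga4, which share ligands such as VCAM-1 and osteopontin, complete the alpha chains. Itga9 had 433, 1799 and 1375 normalized counts in the lines labelled Rag1KO, against 460.2, 603 and 23.8 in those labelled WT, WT replicate 6 being far below the rest (log2 fold change 2.43, SE 1.33; 0.96 without that line).

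**Figure D3:**
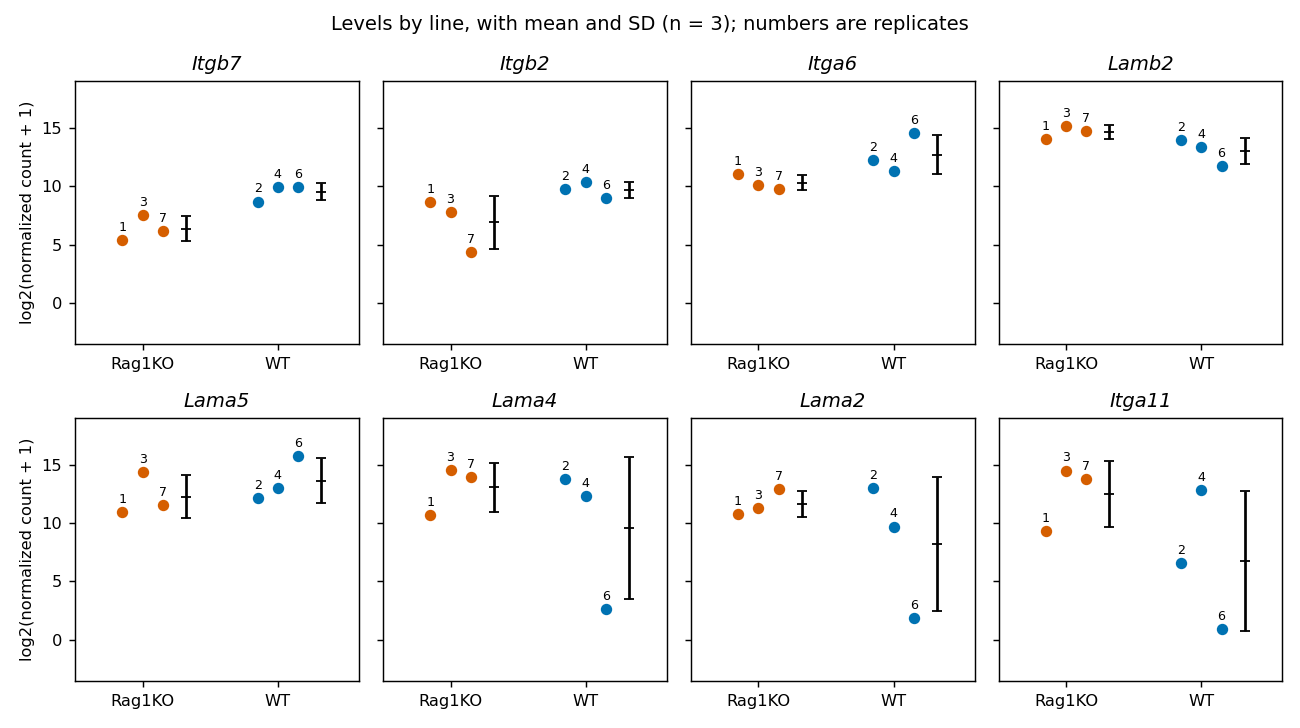
Each panel gives log2(normalized count + 1) of 1 gene by line, Rag1KO left and WT right, with replicate numbers beside the points and the mean with SD (n = 3) as a black bar. In the upper row the groups do not overlap; in the lower row WT replicate 6 is the highest line for Lama5 and the lowest for Lama4, Lama2 and Itga11.

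Laminin alpha chains had the largest median spread of the 5 chain types, with a median SD of 2.53 over the 6 lines on the log2(value + 1) scale. That median was the SD of Lama1, a scarce chain. The SD was 4.47 for Lama4, 4.15 for Lama2, 1.83 for Lama5 and 0.83 for Lama3. Lama4, Lama2 and Lama5 accounted for nearly all of the laminin alpha level, in proportions that differed from line to line, and WT replicate 6 made Lama5 almost alone. Lama5 (ENSMUSG00000015647.9, chromosome 2, 180176373 to 180225859, minus strand) had 1950.1, 20513 and 2903 normalized counts in the lines labelled Rag1KO, against 4454, 8173 and 55812 in those labelled WT. WT replicate 6 was highest and Rag1KO replicate 3 next, and the groups overlapped (log2 fold change −1.38, SE 1.25, 95% interval −4.44 to 1.69, limma adjusted p 0.85). Without WT replicate 6 the log2 fold change was −0.31.

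Lama4 (ENSMUSG00000019846.11, chromosome 10, 38965515 to 39110188, plus strand) had 1647, 23791 and 15761 normalized counts in the lines labelled Rag1KO, against 13829, 5079 and 5.28 in those labelled WT. It was abundant in 4 lines, low in Rag1KO replicate 1 and close to 0 in WT replicate 6, where 6 reads were counted (log2 fold change 3.48, SE 3.02, 95% interval −3.92 to 10.88, limma adjusted p 0.85). Its log2 fold change of 3.48 became 0.02 without that line, and with all lines edgeR gave 1.14 and DESeq2 1.13. Lama2 (ENSMUSG00000019899.17, chromosome 10, 26980036 to 27619758, minus strand), which is mutated in a congenital muscular dystrophy, had 1733, 2488 and 7574 normalized counts in the lines labelled Rag1KO, against 8369.7, 830.4 and 2.64 in those labelled WT. The value in WT replicate 6 came from 3 reads, and the limma log2 fold change went with it, being 3.44 (SE 2.77) with all lines and 0.28 without. With all lines edgeR and DESeq2 each gave 0.37.

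As shares of the summed per-kilobase level of the 5 laminin alpha chains, Lama5 took 41.3%, 45.9% and 12.6% in the lines labelled Rag1KO, against 19.1%, 60.1% and 99.97% in those labelled WT. Lama4 took 32.9%, 50.2% and 64.4% in the lines labelled Rag1KO, against 55.9%, 35.2% and 0.00892% in those labelled WT. Lama2 took 25.6%, 3.88% and 22.9% in the lines labelled Rag1KO, against 25.0%, 4.25% and 0.0033% in those labelled WT. The order of these 3 chains therefore differed among lines of the same label. Lama1, the alpha chain of early embryonic laminin, had 0, 11.6 and 15.5 normalized counts in the lines labelled Rag1KO, against 0, 49.2 and 0 in those labelled WT, and Lama3, an alpha chain of epithelial laminins, had 5.75, 18.5 and 25.2 normalized counts in the lines labelled Rag1KO, against 11.1, 5.79 and 7.04 in those labelled WT. Both were scarce in every line (log2 fold changes 0.68, SE 1.93, and 0.80, SE 0.69).

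**Figure D4:**
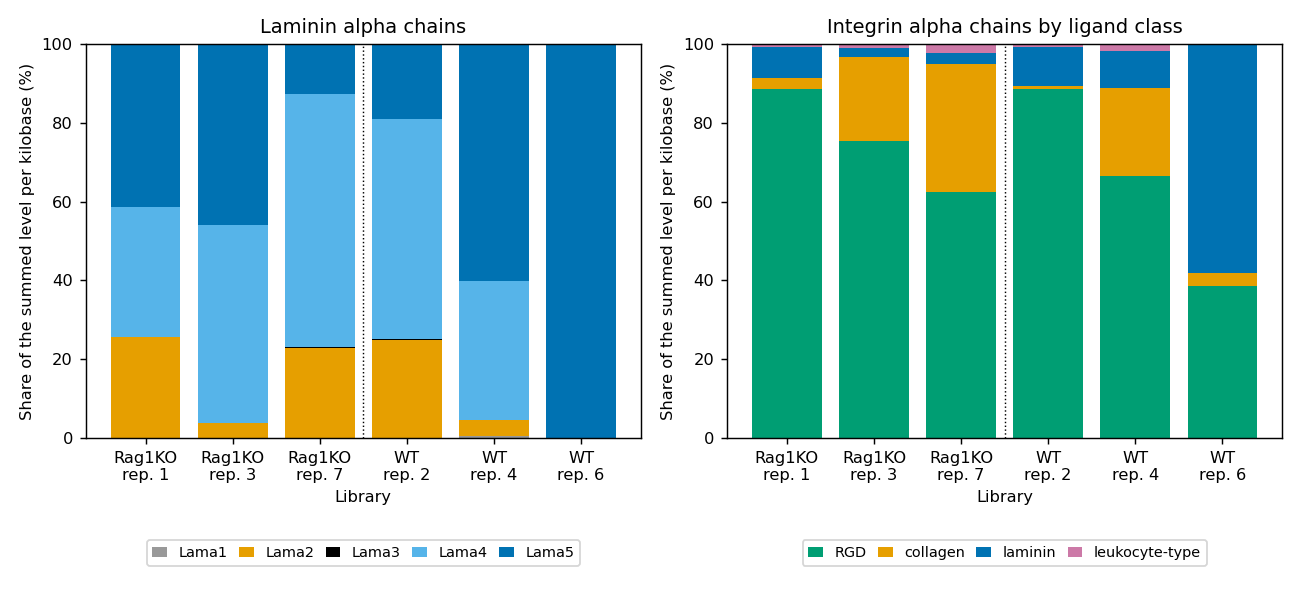
Bars give, for each library, the share of the summed level per kilobase taken by each laminin alpha chain (left) and by each ligand class of integrin alpha chains (right), Rag1KO lines left of the dotted line. In WT replicate 6 Lama5 takes nearly the whole bar and laminin-binding integrins 58.1%, against 12.6% to 60.1% and 2.28% to 9.93% in the other 5 lines.

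Promoter windows are shown for Lama5, which was highest in WT replicate 6, and for Lama2 and Itga11, which were nearly silent there, together with that of Itgb7, the chain with the lowest p between the groups. Each is the 250 bases before the RefSeq start (GRCm38.p6), written 5′ to 3′ on the gene's strand, with CpG dinucleotides in capitals. The windows lie at chr2:180225860-180226109 (minus strand) for Lama5, chr10:27616943-27617192 (minus) for Lama2, chr9:62677605-62677854 (plus) for Itga11 and chr15:102231936-102232185 (minus) for Itgb7. The RefSeq start of Lama2 lies 2816 bases inside the outermost start of the gene as annotated by GENCODE.
Lama5: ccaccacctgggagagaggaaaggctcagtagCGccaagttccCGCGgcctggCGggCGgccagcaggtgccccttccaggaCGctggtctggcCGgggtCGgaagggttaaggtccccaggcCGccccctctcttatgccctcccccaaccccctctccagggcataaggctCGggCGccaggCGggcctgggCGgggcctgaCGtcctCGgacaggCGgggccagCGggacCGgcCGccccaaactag
Lama2: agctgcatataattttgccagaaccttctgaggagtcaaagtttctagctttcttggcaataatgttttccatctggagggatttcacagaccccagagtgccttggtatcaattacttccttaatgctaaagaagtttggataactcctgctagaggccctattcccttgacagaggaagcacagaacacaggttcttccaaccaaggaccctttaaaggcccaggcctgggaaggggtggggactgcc
Itga11: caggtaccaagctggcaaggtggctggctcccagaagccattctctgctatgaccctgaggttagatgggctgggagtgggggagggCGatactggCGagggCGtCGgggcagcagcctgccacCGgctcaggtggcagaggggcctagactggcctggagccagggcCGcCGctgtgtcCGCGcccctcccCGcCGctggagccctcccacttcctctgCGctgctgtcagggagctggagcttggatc
Itgb7: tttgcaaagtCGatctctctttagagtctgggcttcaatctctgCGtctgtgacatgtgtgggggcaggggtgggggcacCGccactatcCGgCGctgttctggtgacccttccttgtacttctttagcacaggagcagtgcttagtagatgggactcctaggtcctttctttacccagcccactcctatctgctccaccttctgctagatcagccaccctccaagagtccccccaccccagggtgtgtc

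The Lama5 window held 19 CpG dinucleotides and 4 copies of the GC box GGGCGG, counted on both strands, each of which contains a CpG itself. The Lama2 window held 0 CpG dinucleotides, the Itga11 window 12 and the Itgb7 window 5, and none of these 3 held GGGCGG. The median over 32851 RefSeq windows of the same length was 6, and 32.7% of them held GGGCGG. The TATA box TATAAA was in 0 of the 4 windows, against 12.4% of all windows. The AP-1 site TGACTCA was in 0 as well (4.46% of all windows), as was the E-box CACGTG (6.02%), all searched on both strands. RefSeq windows were at hand for 23 of the 37 symbols. These matches describe letters in a window and are not evidence of a bound site.

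Among laminin beta chains, Lamb2 was lowest and Lamb1 highest in WT replicate 6. Lamb2 (ENSMUSG00000052911.9, chromosome 9, 108479736 to 108490530, plus strand), the beta2 chain of muscle, kidney and vessel laminins, had 16633, 36850.4 and 27821 normalized counts in the lines labelled Rag1KO, against 15875, 10620.2 and 3412 in those labelled WT. The lowest line labelled Rag1KO lay just above the highest labelled WT, with means of 27102 ± 10128 normalized counts in the lines labelled Rag1KO and 9969 ± 6257 in those labelled WT (SD, n = 3 each; log2 fold change 1.63, SE 0.62, 95% interval 0.10 to 3.16, limma adjusted p 0.85). Without WT replicate 6 the log2 fold change was 0.99 and the groups stayed apart. Lamb1, the beta1 chain of most laminins, had 27229, 41031 and 19704 normalized counts in the lines labelled Rag1KO, against 41775, 21889 and 77137 in those labelled WT, with overlapping groups and its highest value in WT replicate 6 (log2 fold change −0.56, SE 0.52). Per kilobase, Lamb1 over Lamb2 was 1.004, 0.683 and 0.434 in the lines labelled Rag1KO, against 1.61, 1.26 and 13.9 in those labelled WT. Lamb3, a beta chain of epithelial laminins, had 26.8, 35.9 and 38.8 normalized counts in the lines labelled Rag1KO, against 3.02, 37.7 and 0 in those labelled WT and was near the limit of detection in WT replicates 2 and 6 (log2 fold change 2.68, SE 1.34).

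Lamc1, whose gamma1 chain is part of most laminins, had the smallest SE of the laminin genes tested. It had 20105, 45444 and 32882 normalized counts in the lines labelled Rag1KO, against 33599.8, 24771 and 43999 in those labelled WT, with overlapping groups (log2 fold change −0.10, SE 0.38, 95% interval −1.02 to 0.83, limma adjusted p 0.969). Lamc3 had 1.92, 18.5 and 0 normalized counts in the lines labelled Rag1KO, against 40.3, 9.66 and 0 in those labelled WT and was not tested.

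Reading chains as the complexes they are known to form, the lower of the chain levels per kilobase was taken for 24 integrin pairs and 13 laminin trimers. These are levels of RNA, and neither protein nor the assembly of a complex was measured. A chain that several complexes share was counted in full in each of them. In all 12 pairs with Itgb1 the alpha chain was the lower one in all 6 lines. This follows from Itgb1 being the most abundant member per kilobase in every line. The alpha-chain sum per kilobase over Itgb1 was 0.359, 0.876 and 0.488 in lines labelled Rag1KO and 0.412, 0.497 and 0.434 in those labelled WT. Among trimers, the alpha chain was the lowest in all 6 lines for 9 of 13, the rest holding Lamc3 or, in WT replicate 6, more Lama5 than Lamb2. Those 9 trimers hold only the 5 laminin alpha chains, so they are not separate observations. Laminin-411 and laminin-421, limited by Lama4, were at 137, 1971 and 1306 normalized counts per kilobase in the lines labelled Rag1KO, against 1146, 420.9 and 0.437 in those labelled WT. Laminin-511, limited by Lama5, was at 171, 1801 and 255 normalized counts per kilobase in the lines labelled Rag1KO, against 391, 718 and 4901 in those labelled WT. Its highest level was in WT replicate 6 and its lowest in Rag1KO replicate 1. The pair of Itga6 with Itgb1, a receptor for it, was at 234, 123 and 98.4 normalized counts per kilobase in the lines labelled Rag1KO, against 533, 283 and 2736 in those labelled WT, and that of Itga3 with Itgb1 at 56.7, 317 and 146 normalized counts per kilobase in the lines labelled Rag1KO, against 198, 317 and 1131 in those labelled WT. WT replicate 6 thus had the highest level of Lama5, Lamb1, Itga6 and Itga3, while Lamc1 was highest in Rag1KO replicate 3. In the other 5 lines the order of Lama5 did not follow that of Itga6. It followed that of Itga3, except that Rag1KO replicate 3 and WT replicate 4 changed places (1807.5 and 1810.4 normalized counts of Itga3). The pair of Itga5 with Itgb1, limited by Itga5, was at 4339.9, 14579 and 3797 normalized counts per kilobase in the lines labelled Rag1KO, against 6058, 3220.2 and 1741 in those labelled WT.

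Genes around these chains were followed in 4 lists, against the median of −0.0003 over all genes tested. In either direction, limma called 0 members of any list, as did DESeq2. DESeq2 gave no adjusted p for Spp1, Cdh1, Edil3, Agrn and Col18a1, so it did not judge these genes. The groups did not overlap for 12.1% of all genes, and 4.67% had an unadjusted limma p under 0.05. Of integrin adaptors and focal adhesion genes, 24 of 31 genes tested had positive log2 fold changes and the median of the list was 0.16 (0.03 without WT replicate 6), 1 had an unadjusted limma p under 0.05, and the groups did not overlap for 2. Zyx, a mechanosensitive focal adhesion protein, had 35099.8, 42359.9 and 32487 normalized counts in the lines labelled Rag1KO, against 25304, 28947 and 19523 in those labelled WT (log2 fold change 0.59, SE 0.23), all lines labelled Rag1KO lying above all labelled WT. Tln1, the talin that activates integrins by binding the beta tail, had 28038, 38471 and 40554 normalized counts in the lines labelled Rag1KO, against 30768, 22099.7 and 22428 in those labelled WT (log2 fold change 0.51, SE 0.24). Its paralogue Tln2 had 3747, 16605 and 7855 normalized counts in the lines labelled Rag1KO, against 2389, 6493 and 1407 in those labelled WT (log2 fold change 1.49, SE 0.75), and for both the groups overlapped.

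Of basement membrane partners of laminin, 12 of 16 genes tested had positive log2 fold changes and the median of the list was 0.32 (0.50 without WT replicate 6), 2 had an unadjusted limma p under 0.05, and the groups did not overlap for 2. Col4a4 was near the limit of detection, with 9.58, 15.1 and 25.2 normalized counts in the lines labelled Rag1KO, against 3.02, 2.90 and 4.40 in those labelled WT (log2 fold change 1.91, SE 0.56). Col4a5, a collagen IV chain, had 13335, 17374 and 18224 normalized counts in the lines labelled Rag1KO, against 11586, 5365 and 11014 in those labelled WT (log2 fold change 0.87, SE 0.34), with separate groups. Fbln1, encoding the laminin- and fibronectin-binding fibulin-1, had 3970.3, 21303 and 8669 normalized counts in the lines labelled Rag1KO, against 739, 8607 and 0.88 in those labelled WT (log2 fold change 5.30, SE 3.02; 1.84 without WT replicate 6), where WT replicate 6 had a single read.

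Of other laminin receptors and integrin-associated tetraspanins, 5 of 15 genes tested had positive log2 fold changes and the median of the list was −0.13 (−0.03 without WT replicate 6), 1 had an unadjusted limma p under 0.05, and the groups did not overlap for 1. Cd151, the tetraspanin that binds alpha3 and alpha6 integrins, had 7114, 8169 and 5559 normalized counts in the lines labelled Rag1KO, against 9030.4, 8999 and 13433 in those labelled WT (log2 fold change −0.59, SE 0.25). Its groups did not overlap, on the same side as Itga6. Sdc2, a heparan sulphate proteoglycan, had 10385, 17088 and 10029.7 normalized counts in the lines labelled Rag1KO, against 24033, 15407 and 24042 in those labelled WT (log2 fold change −0.77, SE 0.30), and Cd63 had 47629.7, 43473 and 21793 normalized counts in the lines labelled Rag1KO, against 90090.2, 63129 and 47093 in those labelled WT (log2 fold change −0.86, SE 0.40), both with overlapping groups.

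Of other integrin ligands, 13 of 18 genes tested had positive log2 fold changes and the median of the list was 0.51 (0.16 without WT replicate 6), 1 had an unadjusted limma p under 0.05, and the groups did not overlap for 2. Spp1, encoding osteopontin, a ligand of alphav and alpha9 integrins, had 10756, 597 and 4607 normalized counts in the lines labelled Rag1KO, against 29134, 11706 and 556239 in those labelled WT (log2 fold change −4.21, SE 1.71; −2.58 without WT replicate 6). The groups did not overlap, and WT replicate 6 was far above every other line. Mfge8, an RGD protein that bridges cells to alphav integrins, had 17718, 20171 and 18423 normalized counts in the lines labelled Rag1KO, against 13911, 14718 and 15718 in those labelled WT (log2 fold change 0.34, SE 0.15), also with separate groups. Ctgf had 39340.3, 139392 and 6685 normalized counts in the lines labelled Rag1KO, against 36277, 2518 and 157 in those labelled WT (log2 fold change 3.77, SE 2.13; 1.80 without WT replicate 6), with overlapping groups. Every gene named from these lists had a limma adjusted p of 0.850.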

How the data were processed

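RNA was sequenced from 6 cultured mouse tumour cell lines, 3 labelled Rag1KO and 3 labelled WT. Per the submitters' processing notes, the tools were Trim Galore 0.6.6, FastQC, STAR 2.7.9a and DESeq2 with the mm10 build; the counting tool, its strand setting and the annotation are not given in the sources used here. The values the authors deposited are a normalized signal per gene: in each library every value is a whole number of reads (within 0.01 reads) divided by a size factor. These size factors equal median-of-ratios factors computed here from the recovered reads to a relative difference of at most 1.21e-10. For one library the recovery could not be checked automatically because 1 read is worth close to 1 unit. Tests on the recovered reads are therefore alternatives. Depth was 55409583 to 62998051 reads per library, and limits from counts cover counting error only.

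Genes kept by edgeR's filterByExpr (16137 of 55401) were tested with limma 3.58.1 (R 4.3.3) on log2(value + 1) with a mean-variance trend, two-sided, with Benjamini-Hochberg adjustment over all genes and a threshold of 0.05. Fold changes are Rag1KO minus WT on that scale, which understates changes of low genes. A single line near 0 weighs heavily on them where the other lines are high. edgeR 4.0.16 and DESeq2 1.42.0 on the recovered reads, other scalings, filters and pseudocounts and leaving out each line were alternatives. Exon lengths and coordinates came from GENCODE (mm10); 55141 identifiers matched. Promoter sequences are RefSeq's (GRCm38.p6). The scripts were tested on simulated data. Members were taken by symbol. Values in every library are given for tested members whose groups do not overlap or whose highest library is at least 4 times the lowest, for the most abundant members per kilobase of each chain type and, in addition, for those not tested; Itga10 and Itgb4 are given by range, and from each of 4 neighbouring gene lists the 3 genes of lowest p. One result is not reported here, and 1 tested member is therefore left out of the figures and of single values. The members, lists and markers were chosen with earlier results of these data known.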

Additional observations from a re-analysis of the deposited data

How the results depend on the processing

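No paired analysis was possible because the groups share no replicate numbers. The count of genes called, 1 with limma, was 0 with edgeR and 65 with DESeq2, and 0 to 5 when a line was left out, 5 being without WT replicate 6. Tests without that line under DESeq2 and edgeR, added after seeing the data, called 130 genes and 0 genes, and 0 members each. DESeq2 with all lines called 1 member, Itgb7. Members whose groups do not overlap numbered 5 without WT replicate 6, an alternative also added after seeing the data. The median log2 fold change of laminin chains, 0.74, was 0.16 in edgeR and in DESeq2, 1.24 with a pseudocount of 0.1, −0.10 with a filter of 1 CPM in 3 libraries, and 0.07 (without WT replicate 6) to 1.66 (without Rag1KO replicate 1) when a line was left out. That of integrin chains, 0.35, was 0.07 in edgeR and in DESeq2 and ranged from 0.02 to 0.34 when a line was left out. With all lines, the log2 fold change was −0.97 in edgeR and −0.97 in DESeq2 for Itga2, −1.99 and −2.00 for Itgad, and −0.85 and −0.85 for Lama1. When a line was left out, the sign turned for 7 of the 27 members given in full: Itga2 ranged from −0.65 to 3.22, Itga7 from −2.23 to 0.080, Itga8 from −0.80 to 0.75, Itgad from −1.17 to 2.45, Itgb3 from −0.10 to 1.61, Lama1 from −0.26 to 2.57 and Lamc1 from −0.37 to 0.22. The other 20 kept their sign under every alternative other than the fits added after seeing the data. Of those fits, DESeq2 without WT replicate 6 gave a log2 fold change of −0.21 for Lama2 and 0.43 for Lama5. In limma with all lines these were 3.44 and −1.38. In limma, means of log2(value + 1) are compared, and a mean of normalized counts can have the other direction. For Itga2, Itgad and Lama1 it was 114, 12.8 and 9.03 in the lines labelled Rag1KO, against 225, 51.6 and 16.4 in those labelled WT. Without WT replicate 6 it was 3931 against 4600 for Lama2 and 8456 against 6314 for Lama5. These means lay in the direction that DESeq2 gave. The cause of the turns was not tested further. Depth limits the members at or near 0 reads, above all Itgam, Itgae, Itgal, Itgax, Itgb6, Lama1 and Lamc3.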
